A study of Mus musculus with 18 samples.

Results

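Pituitary RNA was compared between 3 WT mice and 3 mice homozygous for Thrb K146Q, the mutation that replaces a lysine of thyroid hormone receptor beta with glutamine and so removes one of its attachment sites for the small protein tag SUMO. The members of the comparison were all genes with at least 0.5 CPM (reads scaled to a common library size) in at least 3 of the 6 pituitary libraries, which left 15589 of the 24054 genes in the table. The knock-in is a single-base change carried in every tissue and shared by all isoforms of the receptor, made on the C57BL/Ntac strain and, per the study's methods, backcrossed to the same background at least 3 times. The WT mice (numbers 1, 2 and 43) were of the same substrain, and both genotypes were 3 months old and untreated. The labels give no sex for these libraries, and the study's methods state males where nothing else is said. Hypothalamus and thyroid libraries with the same mouse numbers make up the rest of the 18 libraries of the series. Per-mouse values below are in the order WT 1, 2 and 43 and K146Q 60, 62 and 83.

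The anterior pituitary holds several secretory cell types, each of which makes its own hormone: thyrotrophs make thyrotropin (TSH), somatotrophs growth hormone, lactotrophs prolactin, gonadotrophs luteinizing and follicle-stimulating hormone, and corticotrophs the adrenocorticotropin precursor. TSH is built from a beta subunit (Tshb) and an alpha subunit (Cga) that it shares with the gonadotropins. Thyrotropin-releasing hormone from the hypothalamus stimulates its synthesis through the receptor Trhr, and thyroid hormone, which pituitary cells can activate locally with the deiodinase Dio2, lowers it through thyroid hormone receptor beta.

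The 6 pituitary libraries held 16468854 to 20339233 reads, so that 3 reads were worth 0.133 to 0.172 CPM. Growth hormone mRNA took 14.9% ± 5.13 of the values in WT and 7.66% ± 0.776 in K146Q libraries (SD, n = 3 each), so the scale of every other gene depends in part on how the libraries are scaled. The tissue label fitted the pituitary markers: Gh, Prl, Pomc, Chgb and Cga were among the 10 genes with the most reads. Of the 5 hypothalamic neuron markers, Hcrt, Pmch and Trh stayed below the filter, with at most 13 reads in a library. The other 2, Avp and Oxt, passed it. The list summed to 8.49 to 13.0 CPM in WT and 7.07 to 11.1 CPM in K146Q libraries. The gene just inside the filter had a third-highest value of 0.502 CPM and the gene just outside one of 0.489 CPM.

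Of the 15589 genes, 1537 differed between the genotypes at an adjusted p under 0.05 (9.86% of those tested, limma on log2(CPM + 0.5) with Benjamini-Hochberg adjustment, K146Q minus WT). Higher values in K146Q were found for 991 genes (6.36%) and lower values for 546 (3.50%). The rises were the larger changes: 259 of the higher genes had a log2 fold change above 1 and 66 above 2, against 94 of the lower genes below -1 and 11 below -2. The median log2 fold change was 0.69 among the higher genes, -0.58 among the lower genes and -0.01 over all genes tested. The 3 mice of one genotype lay wholly above or below the other 3 for 1535 of the 1537 genes, against 4827 of all 15589 (31.0%). The exceptions were Cyp26b1, a retinoic acid-degrading enzyme, and Egr3, an immediate-early transcription factor, both looked up after their values were seen. Of the 64 tested genes that had passed the filter through the K146Q libraries alone, 38 were called higher. Of the 26 that had passed through the WT libraries alone, 13 were called lower. These genes entered the test through the genotype in which they were high, so their share of calls is no separate result. With library totals recomputed without the 10 genes with the most reads, the split was 837 higher and 879 lower genes, and the median over all genes moved from -0.01 to -0.06. No label or method says whether libraries of a genotype came from separate litters or preparations, so the p-values measure the spread between these 6 libraries.

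**Figure D1:**
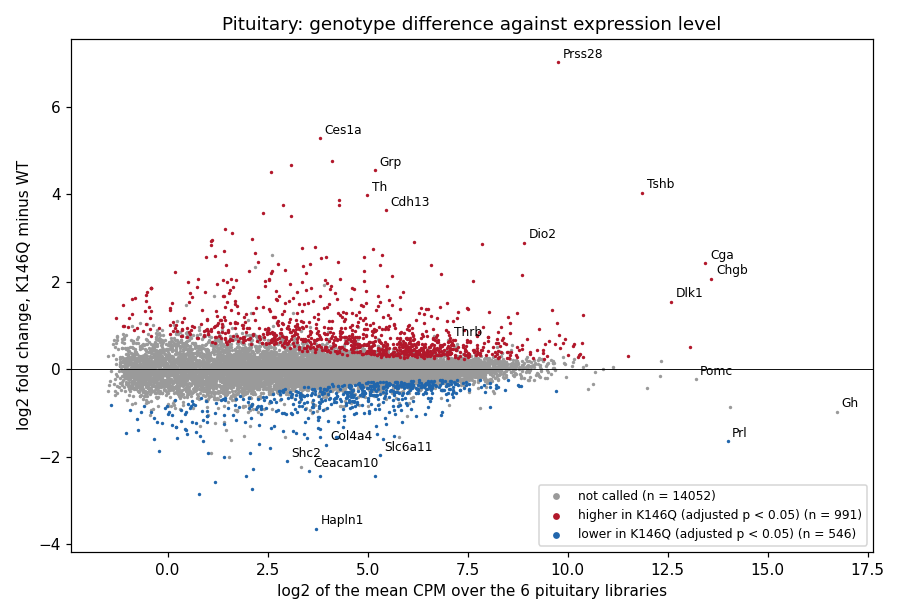
Each point is a gene, with the log2 of its mean CPM over the 6 pituitary libraries on the x axis and its log2 fold change (K146Q minus WT) on the y axis. The 991 higher genes reach 7.02 (Prss28) and include abundant mRNAs such as Tshb, Cga, Chgb and Dlk1, while the 546 lower genes reach -3.64 among those with a mean of at least 5 CPM (Hapln1).

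Thyrotroph genes were higher in the K146Q pituitary: all 5 genes of the thyrotroph list rose, with a median log2 fold change of 2.75 beside -0.01 over all genes. Tshb was at 539, 235 and 593 CPM in WT and 8183, 7166 and 5600 CPM in K146Q, so every K146Q mouse lay far above every WT mouse, and its log2 fold change was 4.03 ± 0.30 (SE, adjusted p = 9.24e-05). Cga was at 3340, 3157 and 4007 CPM in WT and 20723, 19367 and 16205 CPM in K146Q mice and rose by 2.42 ± 0.14 (SE, adjusted p = 3.65e-05). Trhr, the receptor that receives the hypothalamic signal, went from 13.6, 5.72 and 8.2 CPM to 71.1, 59.9 and 53.2 CPM, a log2 fold change of 2.75 ± 0.25 (SE, adjusted p = 0.000228). Gata2, a transcription factor of thyrotrophs and gonadotrophs, rose least, from 75.3, 63.4 and 65.8 CPM to 148, 138 and 104 CPM, by 0.92 ± 0.13 (SE, adjusted p = 0.00208). Dio2 was at 156, 87.6 and 103 CPM in WT and 944, 877 and 704 CPM in K146Q, also without overlap, and rose by 2.90 ± 0.19 (SE, adjusted p = 5.79e-05). In whole-tissue RNA, fewer cells of a type and less RNA per cell cannot be told apart, nor can more cells and more RNA per cell.

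The thyrotroph genes did not rise in proportion. The ratio of Tshb to Cga values within a library was 0.128 ± 0.0469 in WT and 0.370 ± 0.0247 in K146Q mice (SD, n = 3 each), and did not overlap (two-sided exact permutation p = 0.1, and 3 against 3 cannot go lower). Tshb rose most of the 5 markers, so measured against it the others were necessarily lower in K146Q mice, and these ratios restate the fold changes. The Dio2 to Tshb ratio was 0.278 ± 0.101 in WT and 0.121 ± 0.00524 in K146Q mice, the Trhr to Tshb ratio 0.0211 ± 0.00634 and 0.00885 ± 0.000585, and the Gata2 to Tshb ratio 0.174 ± 0.0850 and 0.0187 ± 0.000577 (SD, n = 3 each). In each of these 3 ratios the genotypes did not overlap (two-sided exact permutation p = 0.1). The ratios, which all involve Tshb, also varied less among the K146Q mice than among the WT mice, where Tshb was lowest in mouse 2 (235 CPM). Cga and Gata2 are also genes of gonadotrophs, and the part of the cell mix in the ratios was not tested.

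To show the regulatory sequence next to these genes, the 250 bases before the annotated start of Tshb, Cga, Dio2 and Chgb, a secretory granule protein, are given below, 5′ to 3′ on the gene's strand, from RefSeq on GRCm38.p6. Capitals mark matches on either strand to the cAMP response element TGACGTCA, to the GATA factor motif AGATAA or to the nuclear receptor half-site AGGTCA. The Tshb window is chr3:102782715-102782964 on the minus strand, that of Cga chr4:34893529-34893778 on the plus strand, that of Dio2 chr12:90739039-90739288 on the minus strand and that of Chgb chr2:132781392-132781641 on the plus strand.
Tshb: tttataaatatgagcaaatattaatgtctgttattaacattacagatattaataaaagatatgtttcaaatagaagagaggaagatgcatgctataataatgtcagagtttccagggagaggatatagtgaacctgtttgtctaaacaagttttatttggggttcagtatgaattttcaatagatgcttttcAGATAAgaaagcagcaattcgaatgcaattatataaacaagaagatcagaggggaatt
Cga: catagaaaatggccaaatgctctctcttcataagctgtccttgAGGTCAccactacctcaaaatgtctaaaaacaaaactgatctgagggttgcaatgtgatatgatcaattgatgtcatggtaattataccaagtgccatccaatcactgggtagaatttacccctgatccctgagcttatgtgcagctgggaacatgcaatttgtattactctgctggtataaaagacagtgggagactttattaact
Dio2: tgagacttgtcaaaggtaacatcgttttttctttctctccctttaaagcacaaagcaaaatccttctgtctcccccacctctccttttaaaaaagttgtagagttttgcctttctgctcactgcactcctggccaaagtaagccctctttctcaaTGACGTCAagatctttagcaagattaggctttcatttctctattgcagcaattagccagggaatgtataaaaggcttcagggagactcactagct
Chgb: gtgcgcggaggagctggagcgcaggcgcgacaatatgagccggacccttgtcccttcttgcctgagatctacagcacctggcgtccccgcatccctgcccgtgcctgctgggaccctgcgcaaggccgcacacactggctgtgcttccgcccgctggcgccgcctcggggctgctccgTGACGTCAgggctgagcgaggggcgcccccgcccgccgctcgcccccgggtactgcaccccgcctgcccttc
The GATA match of Tshb began 58 bases before the start, the half-site of Cga 207 bases before it, and the cAMP response elements of Dio2 and Chgb 95 and 72 bases before it. These are RefSeq starts. GENCODE M21 starts Chgb at 132781278, so its printed window lies inside the gene as GENCODE places it. Among the 11574 tested genes with a RefSeq window, 2.95% held the cAMP response element, against 2.32% of the 734 higher genes with a window and 1.21% of the 412 lower ones. The GATA motif was found in 7.41% of all windows, in 9.81% of those of higher genes and in 7.28% of those of lower genes. For the half-site the shares were 13.2%, 15.4% and 13.8%. The direct repeat of that half-site with 4 bases between, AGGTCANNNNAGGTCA, which thyroid hormone receptors are known to bind, was found in 0 of the 11574 windows. A match in these letters is a description of the window and not a measured binding site.

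Of the other hormone genes, prolactin fell and the rest did not pass the limma test on the scale used here. Prl was at 19074, 24885 and 30662 CPM in WT and 6929, 7823 and 8664 CPM in K146Q, and its log2 fold change of -1.65 ± 0.18 (SE, adjusted p = 0.000603) was among the 15 largest falls. Gh was at 97779, 125476 and 213048 CPM in WT and 62503, 74182 and 75385 CPM in K146Q, and although its 3 K146Q values lay below the 3 WT values, the log2 fold change of -0.97 ± 0.30 (SE, adjusted p = 0.0737) missed the threshold in limma, with WT mouse 43 far above the other WT mice. On the recovered reads it was called by edgeR (log2 fold change -1.04, adjusted p = 0.0246) and by DESeq2 (adjusted p = 0.0354). The Gh to Prl ratio was 5.71 ± 1.08 in WT and 9.07 ± 0.393 in K146Q libraries (SD, n = 3 each, two-sided exact permutation p = 0.1), without overlap. Pomc, the adrenocorticotropin precursor, was at 11541, 11161 and 7554 CPM in WT and 10274, 9931 and 5913 CPM in K146Q, overlapping, with a log2 fold change of -0.23 ± 0.23 (SE, adjusted p = 0.591), though under quantile normalization it was called (-0.87, adjusted p = 0.0247 by limma). Lhb, the luteinizing hormone subunit, was at 727, 807 and 612 CPM in WT and 723, 690 and 708 CPM in K146Q, and the 95% interval of its log2 difference ran from -0.23 to 0.21. Fshb overlapped too, at 606, 760 and 504 CPM in WT and 640, 673 and 794 CPM in K146Q. The Cga to Lhb ratio went from 5.02 ± 1.37 in WT to 26.6 ± 3.18 in K146Q mice (SD, n = 3 each, two-sided exact permutation p = 0.1).

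The marker lists of the other pituitary cells split into lists with lower members and lists with no called member (3.50% called lower over all genes). Of 5 somatotroph markers 3 fell and 0 rose, with a median of -0.97, which is the value of Gh and was -0.49 under quantile normalization. The 3 were Ghrhr, the receptor for growth hormone-releasing hormone, which fell by 0.48 (adjusted p = 0.0116), Neurod4, a somatotroph lineage factor, which fell by 1.0 (adjusted p = 0.00976), and Ghsr, the ghrelin receptor, which fell by 2.59 (adjusted p = 0.00507). Ghsr rests on few reads, with 148, 46 and 60 reads in WT and 1, 0 and 19 reads in K146Q libraries. Of 4 lactotroph markers 2 fell, Prl and Angpt1, a ligand of the endothelial receptor Tie2. The oestrogen receptor Esr1 was at 182, 109 and 130 CPM in WT and 71.3, 85 and 106 CPM in K146Q, without overlap and with an adjusted p of 0.054, and the dopamine receptor Drd2 at 91.2, 98.4 and 85.2 CPM in WT and 98.2, 87.4 and 78.7 CPM in K146Q, with overlap. None of the 5 gonadotroph, 5 corticotroph, 3 melanotroph, 7 stem and folliculostellate, 5 posterior lobe or 5 erythroid markers tested was called in either direction by limma, and their medians lay between -0.24 and 0.03; 1 melanotroph marker was called without K146Q mouse 83. Among these 30 genes 4 had an unadjusted p under 0.05, edgeR called 0 and DESeq2 called 1. The 2 tested hypothalamic neuron markers and the 3 tested oligodendrocyte markers were not called either, with medians of -0.11 and -0.22.

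Among the lists of cells that are not hormone-producing, the leukocyte and macrophage list had the most called members (9.86% called over all genes). Of 8 leukocyte and macrophage markers 7 passed the filter, 5 rose and 0 fell, with a median log2 fold change of 0.90. Cd74, the invariant chain of MHC class II, was at 143, 155 and 142 CPM in WT and 453, 407 and 260 CPM in K146Q and rose by 1.31 ± 0.17 (SE, adjusted p = 0.00151). Csf1r, the receptor of the macrophage growth factor, was at 29.1, 28.1 and 31.5 CPM in WT and 71, 58.3 and 47.9 CPM in K146Q and rose by 0.97 ± 0.13 (SE, adjusted p = 0.00178). The complement genes C1qa and C1qb and the pan-leukocyte gene Ptprc were the other called markers, while Cd3e of T cells stayed below the filter. The summed level of the list was 228 to 242 CPM in WT and 395 to 654 CPM in K146Q libraries, lowest of these in mouse 83. Of 6 endothelial markers 2 rose, Pecam1 by 0.45 and the tight junction gene Cldn5 by 0.95, and 1 of 6 pericyte and fibroblast markers fell, the collagen gene Col1a2, by 0.40 (adjusted p of 0.00998, 0.0132 and 0.0337 by limma). The part of these cells in the other results was not tested.

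**Figure D2:**
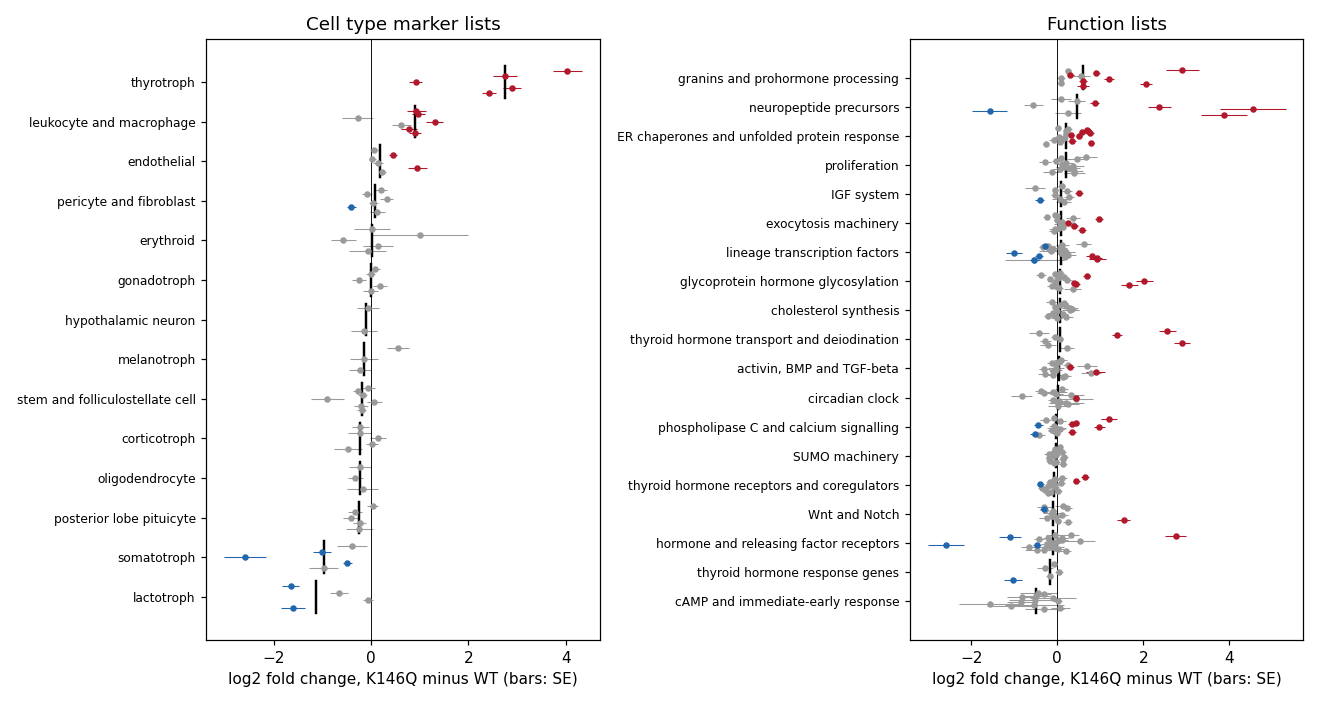
Log2 fold changes (K146Q minus WT, x axis) of the tested members of 14 cell type marker lists (left) and 19 function lists (right), with standard errors as bars and the list median as a black line. Red and blue points are genes called higher or lower at an adjusted p under 0.05, grey points are not called; the thyrotroph list has the highest median (2.75) and the lactotroph list the lowest (-1.13).

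The 15 largest rises included Tshb and 14 other genes, some of them near the detection limit in WT. Prss28, a tryptase-like serine protease on chromosome 17 between 25308646 and 25311876 (GENCODE M21, GRCm38), was at 15.8, 4.4 and 28.1 CPM in WT and 1774, 1735 and 1633 CPM in K146Q and had the largest log2 fold change, 7.02 ± 0.49 (SE, adjusted p = 7.24e-05). The K146Q mice were alike in it and the WT mice were not. Grp, the gastrin-releasing peptide, was at 1.65, 1.72 and 0.627 CPM in WT and 169, 33.7 and 11.3 CPM in K146Q, a rise of 4.55 ± 0.76 (SE, adjusted p = 0.0056) that spread widely among the K146Q mice. Cartpt, a precursor of satiety peptides, was at 1.02, 1.37 and 1.82 CPM in WT and 81.6, 16.2 and 14.9 CPM in K146Q and rose by 3.88 ± 0.53 (SE, adjusted p = 0.00192), again most in mouse 60. Th, the rate-limiting enzyme of catecholamine synthesis, was at 3.43, 3.83 and 1.54 CPM in WT and 112, 42.4 and 27.6 CPM in K146Q and rose by 3.98 ± 0.45 (SE, adjusted p = 0.000743). Gad1, which makes the transmitter GABA, was at 0.756, 0.229 and 0.684 CPM in WT and 34.3, 11.3 and 3.36 CPM in K146Q and rose by 3.50 ± 0.63 (SE, adjusted p = 0.00793). For Grp, Cartpt, Th and Gad1 mouse 60 was the highest of the K146Q mice and mouse 83 the lowest. The same order held for all of the 15 largest rises except Gm1987, so it was not particular to these genes. The hypothalamic neuron markers Avp and Oxt, 2 of the 5 listed, overlapped between the genotypes. Avp was at 2.49, 3.6 and 1.37 CPM in WT and 1.86, 1.99 and 2.36 CPM in K146Q. Oxt was at 6.85, 8.87 and 5.75 CPM in WT and 4.7, 8.01 and 8.03 CPM in K146Q. The source of the Grp, Cartpt, Th and Gad1 RNA was not tested.

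The other genes of this group had steadier rises. Fstl5, a follistatin-like secreted protein, was at 3.03, 1.83 and 1.88 CPM in WT and 47.6, 31.3 and 30.7 CPM in K146Q and rose by 3.75 ± 0.21 (SE, adjusted p = 3.65e-05). Cdh13, a cadherin without a cytoplasmic part, was at 8.54, 6.75 and 3.59 CPM in WT and 102, 79.2 and 63.2 CPM in K146Q and rose by 3.64 ± 0.27 (SE, adjusted p = 8.71e-05). Vgf, a granin-like secretory peptide precursor, was at 10.5, 12 and 27.7 CPM in WT and 197, 103 and 78.8 CPM in K146Q and rose by 2.91 ± 0.38 (SE, adjusted p = 0.00151). No overlap between the genotypes, which 31.0% of all genes met, was a condition for listing a gene among the largest rises. Wfdc17, a secreted whey acidic protein-type protein, rose by 4.76, Brinp3, a neural protein, by 3.76 and Tyrp1, an enzyme of melanin synthesis, by 3.57 (adjusted p of 3.65e-05, 9.24e-05 and 0.000338 by limma). The carboxylesterase gene Ces1a and the annexin gene Anxa10 passed the filter through the K146Q libraries alone. Ces1a had 6, 3 and 1 reads in WT and 900, 398 and 337 reads in K146Q, and Anxa10 3, 1 and 6 reads in WT and 422, 289 and 275 reads in K146Q mice. Their fitted log2 fold changes, 5.29 and 4.67, depend on the 0.5 added before the logarithm, and each gene fell below the filter when a K146Q mouse was left out. Gm1987 had 0, 0 and 2 reads in WT and 265, 170 and 263 reads in K146Q libraries, and as a near-identical copy of a chemokine gene its reads may belong in part to its copies, so no fold is given for it.

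The 15 largest falls were smaller, from -1.49 to -3.64. Hapln1, which links hyaluronan to proteoglycans and lies on chromosome 13 between 89539796 and 89611652 (GENCODE M21, GRCm38), was at 24.1, 23.5 and 26 CPM in WT and 1.03, 1.07 and 2.81 CPM in K146Q, a log2 fold change of -3.64 ± 0.26 (SE, adjusted p = 8.67e-05). Its WT mice were nearly equal, and mouse 83 was the highest of the K146Q mice. The uncharacterised gene 6030419C18Rik was at 53.1, 70 and 60.3 CPM in WT and 8.57, 10.8 and 13.3 CPM in K146Q and fell by 2.45 (adjusted p = 5.79e-05). Slc6a11, a GABA transporter, was at 58.1, 60.5 and 72.1 CPM in WT and 13.9, 16.5 and 17 CPM in K146Q and fell by 1.97 (adjusted p = 3.65e-05), with little spread in either genotype. Shc2, an adaptor protein of receptor tyrosine kinases, went from 13.9, 12.4 and 12.9 CPM to 3.04, 1.89 and 3.16 CPM and fell by 2.11 (adjusted p = 0.000154). The neighbouring basement membrane collagen genes Col4a3 and Col4a4 fell together, by 1.55 and 1.72 (adjusted p of 0.000646 and 0.000338 by limma). Col4a3 was at 30.7, 31.8 and 21.2 CPM in WT and 7.43, 9.75 and 10.2 CPM in K146Q, and Col4a4 at 27.8, 26.1 and 18.5 CPM in WT and 5.93, 6.79 and 7.98 CPM in K146Q mice.

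Further falls among the 15 were Ceacam10, a member of the carcinoembryonic antigen family (-2.34), Megf10, a receptor for the engulfment of cell remains (-1.55), Wscd2 (-1.55), Greb1, a target gene of oestrogen receptors (-1.53), Cilp, a cartilage matrix protein (-1.49), and Angpt1 (-1.60). No overlap between the genotypes was a condition for all 15. Gal, the galanin precursor that lactotrophs also make, was at 8.54, 12.6 and 30.9 CPM in WT and 7.28, 4.24 and 3.36 CPM in K146Q and passed narrowly, with a log2 fold change of -1.57 ± 0.41 (SE, adjusted p = 0.0408); 1 of the 6 fits without a mouse called it. Tmem254c was at 18.6, 25.7 and 24 CPM in WT and 1.81, 2.25 and 11.5 CPM in K146Q, a log2 fold change of -2.44 ± 0.51 (SE, adjusted p = 0.0158), and was called in 3 of the 6 fits without a mouse, but it has near-identical copies between which reads can be split, and its K146Q mice differed widely. Without a K146Q mouse, or under any of the other alternatives, no gene named among these falls changed direction.

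**Figure D3:**
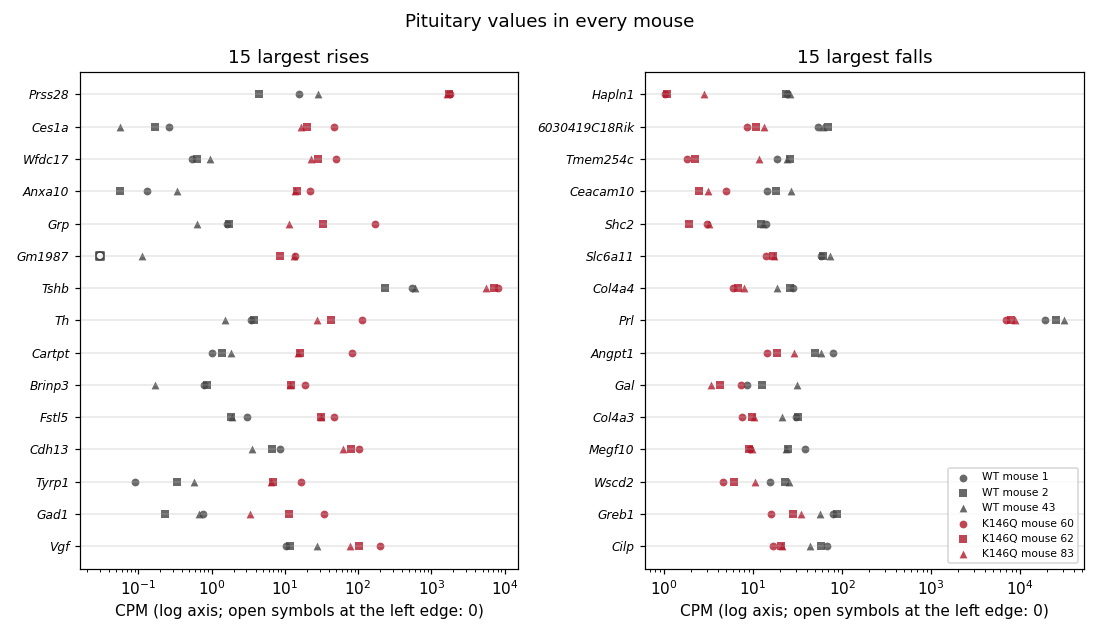
CPM in each of the 3 WT mice (grey) and 3 K146Q mice (red) on a log axis for the 15 genes with the largest rises (left) and the 15 with the largest falls (right). Gm1987 was at 0 in 2 WT mice, drawn as open symbols; the K146Q mice agree closely for Prss28 (1633 to 1774 CPM) and spread widely for Grp (11.3 to 169 CPM).

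The called genes among granins, chaperones, glycosylation enzymes and exocytosis proteins were all higher, though most members of the last 3 lists were not called. The share called higher over all genes was 6.36%. Of 11 granins and prohormone-processing genes 7 rose and 0 fell, with a median log2 fold change of 0.59, which was 0.25 under quantile normalization. Chgb, one of the granins that pack hormone into granules and located on chromosome 2 between 132781278 and 132795079 (GENCODE M21, GRCm38), was at 4915, 4180 and 5101 CPM in WT and 22951, 19653 and 17148 CPM in K146Q and rose by 2.07 ± 0.14 (SE, adjusted p = 6.49e-05). Pcsk1, a prohormone convertase, went from 211, 225 and 215 CPM to 611, 468 and 438 CPM and rose by 1.2 ± 0.11 (SE, adjusted p = 0.00028). Scg3, a granin that binds granule membranes, rose by 0.91 and Chga by only 0.59 (adjusted p of 0.00015 and 0.0277 by limma). The Chgb to Chga ratio was 4.57 ± 0.744 in WT and 12.6 ± 0.894 in K146Q mice (SD, n = 3 each), without overlap (two-sided exact permutation p = 0.1).

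Of 19 endoplasmic reticulum chaperones and stress genes 8 rose and 0 fell, with a median of 0.21, which is above the -0.01 of all genes but small. For this and the next 2 lists, the share called higher over all genes was 6.36%. Calr, a chaperone of glycoproteins, was at 621, 685 and 653 CPM in WT and 1176, 1114 and 1077 CPM in K146Q and rose by 0.78 ± 0.07 (SE, adjusted p = 0.00027). Manf, a secreted stress-induced protein, rose by 0.75, Pdia6, which forms disulfide bonds, by 0.70 and Hspa5, the main chaperone of this compartment, by 0.32, which turned to -0.074 under quantile normalization (adjusted p of 0.00136, 0.00053 and 0.0268 by limma). Under that normalization 5 of the 19 were called. Among 17 genes for glycosylation of glycoprotein hormones, with a median of 0.07, 5 rose: the mannosidase Man1a by 2.02, the sulfotransferase Chst9 by 1.68, and 3 parts of the oligosaccharyltransferase, Rpn2 by 0.68, Dad1 by 0.44 and Ddost by 0.39. Man1a was at 11.9, 8.58 and 14.3 CPM in WT and 59.5, 45.8 and 39.8 CPM in K146Q, so its groups were far apart. Chst9 was low, at 1.11, 0.629 and 1.25 CPM in WT and 4.54, 4.54 and 3.61 CPM in K146Q. Of 16 exocytosis genes, with a median of 0.08, 4 rose, with the calcium sensor Syt1 first, at 235, 194 and 220 CPM in WT and 467, 416 and 393 CPM in K146Q and a log2 fold change of 0.98 ± 0.09 (SE, adjusted p = 0.000283), followed by Cadps2 (0.57), Rab3a (0.39) and Snap25 (0.25).

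The mutated gene itself was higher. Thrb, on chromosome 14 between 17660261 and 18038090 (GENCODE M21, GRCm38), was at 104, 97.7 and 106 CPM in WT and 159, 142 and 184 CPM in K146Q, without overlap, a log2 fold change of 0.65 ± 0.10 (SE, adjusted p = 0.00285) that ran from 0.55 to 0.73 with each mouse left out. A gene total does not show the single-base change, so these values do not check the genotype labels. Of 16 thyroid hormone receptor, partner and coregulator genes 2 rose, Thrb and the retinoid X receptor Rxrg (by 0.45, adjusted p = 0.00465), and 1 fell. The share called over all genes was 9.86%. Of the 16 genes of the SUMO machinery, which attaches and removes the tag, 0 were called by limma, edgeR or DESeq2, and their log2 fold changes lay between -0.20 and 0.16.

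Among genes that move or activate thyroid hormone, 3 of 9 tested rose: Dio2, the amino acid and thyroid hormone transporter gene Slc7a8, at 97.3, 88 and 106 CPM in WT and 303, 243 and 226 CPM in K146Q (log2 fold change 1.39 ± 0.11 (SE, adjusted p = 0.000132)), and Ttr, a carrier protein of thyroid hormone, at 3.83, 3.2 and 5.47 CPM in WT and 30.9, 27.7 and 21.6 CPM in K146Q (log2 fold change 2.56 ± 0.19 (SE, adjusted p = 9.24e-05)). The values of both were apart in every mouse. The share called over all genes was 9.86%. Of 5 genes known to respond to thyroid hormone 1 was called, Hr, a corepressor, which was at 65, 79.6 and 59.8 CPM in WT and 24.9, 30.3 and 47.8 CPM in K146Q and fell by 1.02 (adjusted p = 0.0139). The widely used response gene Klf9 was at 102, 88.5 and 89.7 CPM in WT and 76.9, 83 and 87.2 CPM in K146Q, with an adjusted p of 0.219.

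Lineage factors changed in both directions, 3 of 22 higher and 4 lower (9.86% called over all genes), and with a mouse left out 3 (without K146Q 60 or 62) to 8 (without WT 1 or 43) were called. Isl1 rose by 0.82, Foxl2 by 0.93 and Gata2 as given above, while of the 4 lower genes Lhx3 fell by 0.43, Six6 by 0.28 and Neurod4 as given above (adjusted p of 0.00872, 0.0189, 0.0206 and 0.0306 by limma). Foxl2, which acts on the Cga gene, was at 30.1, 37.2 and 19.3 CPM in WT and 58.9, 54.5 and 47.8 CPM in K146Q. Pou1f1, the factor shared by somatotrophs, lactotrophs and thyrotrophs, was at 123, 137 and 110 CPM in WT and 97.4, 109 and 119 CPM in K146Q, with an adjusted p of 0.298. Of 24 hormone and releasing factor receptors tested, Trhr rose and Ghsr, Ghrhr and the somatostatin receptor Sstr5 fell, Sstr5 by 1.10 (adjusted p = 0.0289) from 14, 23.6 and 18.6 CPM to 5.88, 7.61 and 12.7 CPM.

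Downstream of Trhr, 5 of 17 phospholipase C and calcium signalling genes rose and 2 fell, with a median of -0.02. Over all genes 6.36% were called higher and 3.50% lower. The phospholipase Plcb1 was at 37.9, 26.7 and 28.8 CPM in WT and 62.8, 56.9 and 64.1 CPM in K146Q and rose by 0.98 ± 0.13 (SE, adjusted p = 0.00136), whereas its relative Plcb4 fell by 0.44 (adjusted p = 0.0249). Rgs4, which shortens signals of G proteins, went from 61.8, 59.7 and 49 CPM to 172, 140 and 94 CPM and rose by 1.21 ± 0.19 (SE, adjusted p = 0.00385). Outside this list, Gnas, the stimulatory G protein and one of the 10 genes with the most reads, rose by 0.50 (adjusted p = 0.0302). It was called in 2 of the 6 fits without a mouse. Dlk1, a membrane protein related to Notch ligands and also outside the list, was at 2938, 2717 and 3802 CPM in WT and 10378, 9286 and 7780 CPM in K146Q. It rose by 1.54 ± 0.15 (SE, adjusted p = 0.000338). Neuropeptide precursors had 9 of 17 members above the filter, of which 4 rose and 1 fell. Beside Grp and Cartpt these were Nmb, the neuromedin B precursor, at 3.6, 2.97 and 2.22 CPM in WT and 25.5, 17.3 and 11 CPM in K146Q and with a log2 fold change of 2.37 ± 0.27 (SE, adjusted p = 0.00075), and Pdyn, the dynorphin precursor, which rose by 0.87 (adjusted p = 0.000993), with Gal the one that fell.

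Other lists had few or no called genes. Proliferation genes (14 tested), cholesterol synthesis (15) and the cAMP and immediate-early genes (13) had 0 calls by limma at the threshold. Without WT mouse 2, 6 of the 13 immediate-early genes were called, and without WT mouse 1, 1 of the 15 cholesterol genes. With the SUMO genes these are 58 genes, of which 5 had an unadjusted p under 0.05, and edgeR called 0 and DESeq2 1 of them. The immediate-early list had the lowest median of the function lists, -0.49, and 0 of its 13 genes was without overlap between genotypes. Of 15 clock genes Hlf alone was called (0.43), of 10 genes of the IGF system Igfbp3 rose (0.51) and Igf1r fell (-0.41), of 18 activin, BMP and TGF-beta genes Bmp4 (0.89) and Inhbb (0.30) rose, and of 15 Wnt and Notch genes Dlk1 rose and Notch3 fell (-0.32). With 1 mouse left out, the clock calls ran from 0 (without K146Q 60) to 5 (without K146Q 83), and the activin, BMP and TGF-beta calls were 0 without K146Q 60, K146Q 62, WT 1 or WT 2. For these lists a share of calls near 9.86% is what all genes gave.

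The K146Q mice were not alike in the size of the difference. Mouse 60 lay farthest from WT in 707 of the 991 higher genes and in 326 of the 546 lower genes. Among the higher genes the median deviation from the WT mean was 0.78 in mouse 60, 0.65 in mouse 62 and 0.59 in mouse 83 on the log2 scale, and among the lower genes -0.64, -0.53 and -0.53. The first principal component of the log2 values held 57.6% of the variance and separated the genotypes, with mouse 60 at one end. Left out of the fit, mouse 60 took the number of called genes from 1537 to 625, of which 620 were among the 1537, and mouse 62 took it to 752. Without mouse 60 all 5 thyrotroph markers were still called, as were 5 of the 11 granin and processing genes, 6 of the 19 endoplasmic reticulum genes, 3 of the 7 leukocyte markers and 3 of the 22 lineage factors, but 0 of the 6 endothelial markers. Over all genes that fit called 442 higher and 183 lower, against 991 and 546 with all mice. The higher genes were 2.88% of those with a GENCODE M21 position. Of the genes given with a fold change above, 25 lost their call without mouse 60, with Gnas, Chga, Ghrhr, Hr, Isl1, Foxl2, Pecam1, Cldn5, Ddost and Dad1 among them, and 20 without mouse 62. None of the 25 changed direction.

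By position, the X chromosome had a higher share of higher genes and a lower share of lower ones than any of chromosomes 1 to 19. Of its 511 tested genes 62 were higher (12.1%) and 6 lower (1.17%), whereas on chromosomes 1 to 19 between 5.16% and 7.85% were higher and between 1.71% and 5.30% lower. Its median log2 fold change was 0.05, against -0.04 to 0.01 on the autosomes. Chosen after their values were seen, the called X-linked genes with the largest rises and a mean above 5 CPM included Hs6st2, a heparan sulfate sulfotransferase, at 9.52, 6.98 and 7.75 CPM in WT and 70, 43.4 and 41.1 CPM in K146Q, Chrdl1, a BMP antagonist, at 33.6, 20.5 and 38.6 CPM in WT and 179, 151 and 148 CPM in K146Q, and Irs4, an insulin receptor substrate, at 128, 69.4 and 50.4 CPM in WT and 351, 312 and 278 CPM in K146Q. All 3 were without overlap. The Y-linked RNA helicase gene Ddx3y was expressed in all 6 libraries, at 68.4, 60.5 and 55 CPM in WT and 57.3, 48.8 and 59.9 CPM in K146Q. Xist, the RNA that coats the inactive X chromosome of females, was near the detection filter, at 0.934, 0.972 and 1.08 CPM in WT and 0.671, 0.715 and 0.552 CPM in K146Q. The X share was 11.3% with library totals recomputed without the 10 genes with the most reads (5.43% of all placed genes), 12.5% by edgeR (6.48%), and 7.05% without mouse 60 (2.88%). In the first 30 Mb of chromosome 14, which include Thrb, 16 of 110 genes were lower (14.5%) and 6 higher, and 14 of the 16 carried names of Gm, Duxbl, Tmem254 or Plac9 genes, many of which lie in near-identical copies and share reads. On the rest of the chromosome 12 of 418 genes were lower (2.87%). Positions are from GENCODE M21, which placed 14772 of the 15589 genes.

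**Figure D4:**
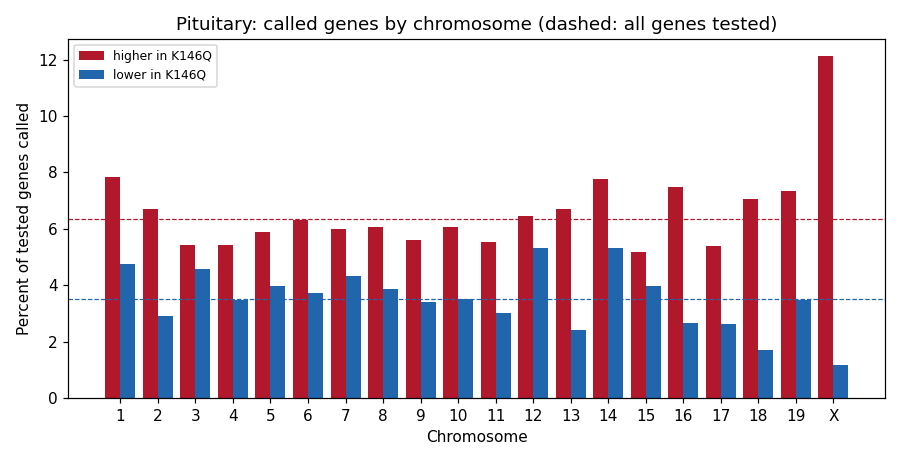
Percent of tested genes called higher (red) or lower (blue) in K146Q on chromosomes 1 to 19 and X, with the shares over all 15589 genes (6.36% and 3.50%) as dashed lines. The X chromosome has the tallest red bar (12.1%) and the shortest blue bar (1.17%).

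Called genes also differed in length and base composition. The median exon length was 3994 bases for higher and 5458 bases for lower genes, beside 4366 bases over all genes, and the median GC content was 48.9%, 53.2% and 49.8%. Lengths were known for 95.8% of the higher and 96.3% of the lower genes. The part of length and GC content in the fold changes was not tested.

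The same genes were then compared with the other tissues by the difference of the genotype effects. In the hypothalamus libraries 0 of 15761 genes were called by limma (645 at an unadjusted p under 0.05), and the pituitary effect differed from the hypothalamus effect in 997 of 16548 genes (6.02%). Of the 1533 pituitary calls in that fit 918 differed, among them all 15 of the largest rises and 13 of the 15 largest falls. Against the thyroid, where many genes differ by genotype, 4712 of 16492 genes (28.6%) differed, with 848 of the 1533, all 15 rises and 8 of the 15 falls among them. The 1533 calls, the rises and the falls were picked by their pituitary change. The same pituitary libraries enter both differences, so these counts are no separate support for a tissue difference. Some rises were barely detected elsewhere: Ces1a reached at most 0.0597 CPM in hypothalamus and 0.18 CPM in thyroid libraries. Thrb moved in opposite directions: in the thyroid it was at 15.6 ± 0.679 CPM in WT and 5.94 ± 1.13 CPM in K146Q mice (SD, n = 3 each), and its pituitary effect exceeded that of the thyroid by 1.98 ± 0.17 (SE, adjusted p = 6.41e-06). In the hypothalamus Thrb was at 27.9 ± 0.914 CPM in WT and 27.6 ± 2.08 CPM in K146Q mice (SD, n = 3 each), and the pituitary effect exceeded it by 0.67 ± 0.12 (SE, adjusted p = 0.00419). Col4a3 was lower in K146Q in both glands, at 43 ± 8.04 CPM in WT and 14.4 ± 1.4 CPM in K146Q mice (SD, n = 3 each) in the thyroid, with a difference of effects of -0.02 ± 0.25 (SE, adjusted p = 0.965). Cilp went the other way in the thyroid, at 16.9 ± 10.4 CPM in WT and 110 ± 13.2 CPM in K146Q mice (SD, n = 3 each), and Greb1 was lower in both and more so in the thyroid, at 29.8 ± 9.72 CPM in WT and 1.02 ± 0.427 CPM in K146Q mice (SD, n = 3 each). The differences for Cilp and Greb1 were -4.33 ± 0.46 (SE, adjusted p = 3.12e-05) and 2.78 ± 0.43 (SE, adjusted p = 0.000462) by limma.

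**Figure D5:**
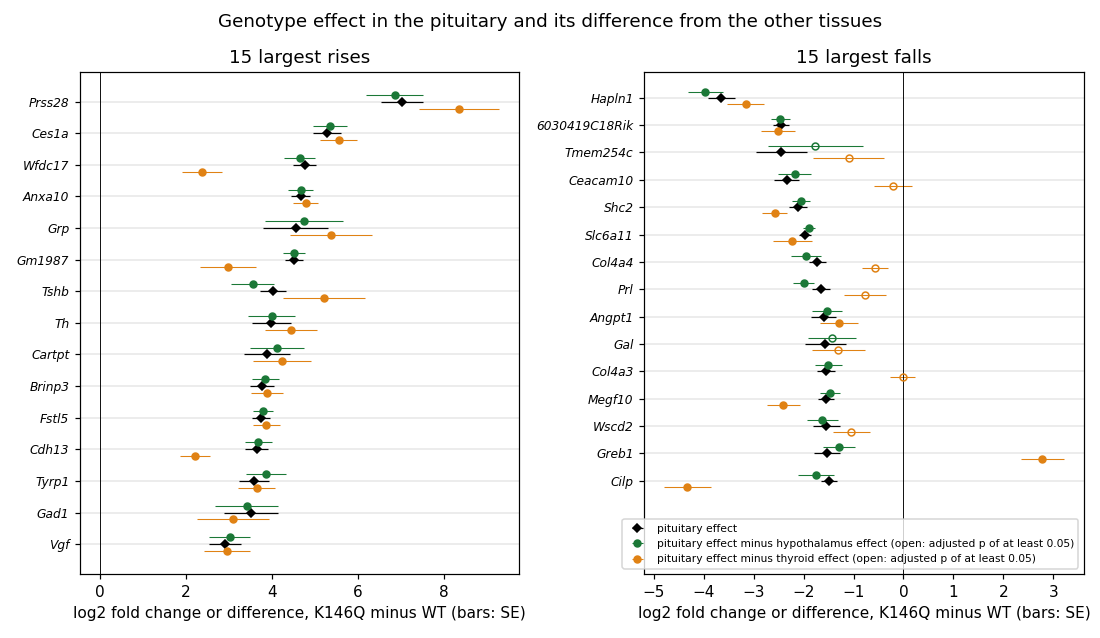
For the 15 largest rises (left) and falls (right), the pituitary log2 fold change (black) and its difference from the hypothalamus effect (green) and the thyroid effect (orange), with standard errors; open circles have an adjusted p of at least 0.05. All 15 rises, picked by their pituitary change, differ from both tissues, while Ceacam10 and Col4a3 lie near 0 against the thyroid.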

How the data were processed

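Total RNA of snap-frozen pituitaries was sequenced on an Illumina instrument. The submitters' processing notes name bcl2fastq 2.17, Bowtie2 2.1.0, RSEM 1.2.15 and mm10; annotation and strandedness are not given in the sources used here. The authors deposited for each tissue a normalized signal for 24054 genes, in CPM of a library size that includes a normalization factor. Their own fold changes, mean expression, p-values and FDR stand in the same files and were not used. Divided by the worth of 1 read, 100% of the pituitary values were whole (tolerance 0.01 reads). The chi-square of any pair of libraries of a genotype was at least 8.98 per degree of freedom, so that none was a repeat of another.

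Genotypes were compared by limma 3.58.1 (R 4.3.3) with a mean-variance trend on log2(value + 0.5), K146Q minus WT, at a Benjamini-Hochberg adjusted p of 0.05. Differences between tissues used 12 libraries and the contrast of genotype effects. Fold changes on this scale understate the change of low genes. Groups and mouse numbers came from the labels. The genes named were the 15 largest rises and 15 largest falls among called genes without overlap whose mean reached 5 CPM, the 10 genes with the highest mean, Thrb, and members of 14 cell type and 19 function lists. Members and lists were chosen with earlier results of these data known. Symbols that had turned into dates (23 of the genes tested) are not named, and some members of the lists are not reported here. Alternatives were other pseudocounts (0.1 and 1), filters and scalings, no trend, edgeR 4.0.16, DESeq2 1.42.0 and leaving out each mouse; both count tools ran on the recovered reads. The scripts were tested on simulated counts.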

Additional observations from a re-analysis of the deposited data

Results flagged for a closer look

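The genotype effect in the pituitary differed from that in the other tissues, by limma's test of the difference between effects, for most of the 5 largest rises, the 5 largest falls and Thrb. All values are the pituitary effect minus the other tissue's effect on the log2 scale, over 12 libraries. The rises and falls were picked by their pituitary change, which also enters the difference.

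Against the hypothalamus, where no gene was called by genotype, the difference was 6.85 ± 0.66 (SE, adjusted p = 4.5e-05) for Prss28, 5.35 ± 0.40 (SE, adjusted p = 5.97e-06) for Ces1a and 4.64 ± 0.36 (SE, adjusted p = 5.97e-06) for Wfdc17. For Anxa10 it was 4.66 ± 0.28 (SE, adjusted p = 1.43e-06) and for Grp 4.75 ± 0.91 (SE, adjusted p = 0.00645). Among the falls it was -3.97 ± 0.35 (SE, adjusted p = 1.82e-05) for Hapln1, -2.47 ± 0.19 (SE, adjusted p = 5.97e-06) for 6030419C18Rik, -2.18 ± 0.33 (SE, adjusted p = 0.00113) for Ceacam10 and -2.05 ± 0.19 (SE, adjusted p = 2.32e-05) for Shc2. For Thrb it was 0.67 ± 0.12 (SE, adjusted p = 0.00419). Shc2 and 6030419C18Rik are well expressed in the hypothalamus, where the genotypes overlap. No hypothalamus library exceeded 0.0597 CPM for Ces1a, 0.215 CPM for Wfdc17, 0.0604 CPM for Anxa10 or 0.116 CPM for Ceacam10. This limits their differences, which mostly repeat the pituitary effect by which these genes were picked.

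Against the thyroid the difference was 8.35 ± 0.93 (SE, adjusted p = 4.28e-05) for Prss28, 5.55 ± 0.42 (SE, adjusted p = 2.38e-06) for Ces1a, 4.78 ± 0.29 (SE, adjusted p = 4.61e-07) for Anxa10 and 5.36 ± 0.95 (SE, adjusted p = 0.00129) for Grp. Wfdc17 was higher in K146Q mice in both glands, with a difference of 2.37 ± 0.47 (SE, adjusted p = 0.00259). It was -3.16 ± 0.37 (SE, adjusted p = 6.21e-05) for Hapln1, -2.52 ± 0.34 (SE, adjusted p = 0.000183) for 6030419C18Rik and -2.58 ± 0.25 (SE, adjusted p = 1.38e-05) for Shc2. Thrb had 1.98 ± 0.17 (SE, adjusted p = 6.41e-06), the sum of a higher value in the pituitary and a lower one in the thyroid. Tmem254c passed in neither tissue and Ceacam10 not against the thyroid. No thyroid library exceeded 0.18 CPM for Ces1a, 0.0632 CPM for Anxa10 or 0.443 CPM for Hapln1, so the same limit holds for their differences.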

How the results depend on the processing

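The count of 1537 called genes stayed within 1.5 times of itself under both other pseudocounts, no filter, a filter of 1 CPM in every library, 3 other scalings, no trend, edgeR and DESeq2 (1104 to 1808 genes). It ran from 625 to 1345 with each mouse left out, and was lowest at 625 without K146Q mouse 60 and 752 without mouse 62. The higher genes ran from 442 (without mouse 60; 518 without mouse 62) to 924 and the lower genes from 183 (without mouse 60; 234 without mouse 62 and 358 without WT mouse 2) to 463 in these fits. The lower genes were 879 with totals without the 10 genes with the most reads and 356 with no trend, against 546. The fits without a mouse hold fewer samples; for the others the cause was not tested. The difference from the hypothalamus was called for 448 (without mouse 60; 469 without mouse 62) to 860 genes, and that from the thyroid for 2801 (without mouse 62) to 4272. With the mouse number as a replicate block, 898 genes differed from the hypothalamus, against 997, and 4849 from the thyroid, against 4712; in the check of pairing the deviations of same-numbered libraries correlated at -0.05 to 0.11 and 0.05 to 0.23, and 4 and 5 of the 6 mice correlated best with their own number. Within the pituitary no paired analysis was possible because the genotypes share no mouse number. Of 1313 values of 83 genes, 1190 kept their direction and side of the threshold; Hspa5 turned to -0.074 under quantile normalization and Pomc to 0.028 without K146Q mouse 83 (Pomc from -0.43 to 0.028 over the fits without a mouse), and neither was called there. Pomc was called under quantile normalization (-0.87, adjusted p = 0.0247). Depth limits genes near 3 reads: Ces1a, Anxa10, Gm1987 and Ghsr.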

Other observations

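The summed value of the immediate-early genes ran from 785 to 2810 CPM in WT and from 998 to 1456 CPM in K146Q libraries, so that the K146Q range lay within the WT range. Without WT mouse 2, 6 of the 13 genes were called by genotype. Erythroid markers were spread in the same way, with sums of 256 to 662 CPM in WT and 344 to 622 CPM in K146Q libraries.

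Genes of the intermediate lobe, which is dissected with the anterior lobe in mice, were lowest in WT mouse 43 and in K146Q mouse 83. Oacyl was at 212, 211 and 126 CPM in WT and at 192, 163 and 114 CPM in K146Q mice, and Pax7, the lineage factor of melanotrophs, at 48.5, 46.2 and 24.4 CPM in WT and at 45, 38.6 and 23.3 CPM in K146Q mice. Pomc, which melanotrophs also make, had its lowest value of each genotype in the same mice.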
